A study of Oryza sativa with 4 samples.

Results

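The lists of small RNA from rice seedlings hold 499 single-copy predicted hairpins without a miRNA*, out of 783 distinct mature sequences in all and 730 without a known family name. They were chosen by values in the lists themselves. A sequence entered when it had no miRBase name, a single match in the rice genome, and no miRNA* on any line of any library. Each sequence and position was counted once. They are predictions of a program and are called members here, not miRNAs. Small RNA was sequenced from 4 groups of seedlings of the cultivar Pokkali, a salt-tolerant rice, with 1 library each. The groups were root given 1.5% NaCl (TR), root without it (CR), shoot given 1.5% NaCl (TS) and shoot without it (CS). The salt was given through the root on day 9 of germination and the tissue was taken after 9 h. Root means the submerged part and shoot the aerial part of the seedling, and the lists hold no mRNA by which the tissue labels could be checked. With 1 library per group there is no replicate, so each comparison below sets 2 libraries side by side, not the conditions, and its interval covers counting error only.

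A plant miRNA is cut by a Dicer-like enzyme from the stem of a folded RNA as a short duplex. One strand is kept by an Argonaute protein and guides it to complementary mRNA, and the other strand, the miRNA*, is mostly lost. Reads of both strands at the right offset are a usual criterion for a plant miRNA, and the members lack the miRNA* read by their definition. In Arabidopsis the Argonaute AGO1, which holds most miRNAs, prefers a first base U, written T in the lists. Other hairpins in plant genomes come from inverted repeats and small transposable elements, whose stems also give small RNAs.

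The sequences the results turn on are given first, 5′ to 3′, with the bases of the seed (positions 2 to 8) in capitals and T for U. Members are called by chromosome and the first coordinate of the mature sequence in the assembly IRGSP-1.0. The first line is the most abundant member, and the second is a conserved miR166 sequence of the same lists that it resembles. The other lines are the members with the next highest levels, with both versions where a locus has more than 1.
chr3:25295065, plus strand: tCTCGGATcaggcttcattcc
miR166 of the lists: tCTCGGACcaggcttcattcc
chr11:19480162, plus strand: tCTCTCTCtcccttgaaggct
chr5:26275243 (osa-miR12479), minus strand: tTAGTTCAcatcaatcttcct
chr3:7103456, minus strand, 22 nt: aCTTTGGCctagactgagagcc
chr3:7103456, minus strand, 21 nt: cTTTGGCCtagactgagagcc
chr4:30712347, minus strand: gGCAAGTCtgtccttggctac
chr2:23768931, minus strand, 22 nt: tCTTGTTTggatctcgagcaca
chr2:23768931, minus strand, 21 nt: cTTGTTTGgatctcgagcaca
chr5:25113986, plus strand: tTAAAAACcgtagaattgctc
chr2:5469141, minus strand: cGAGAAGTacctcgccggct
chr7:25044873, plus strand: tACGGAAAcctagaatttgtct

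The hairpins of 3 of them, with the mature sequence in capitals, show how far the members differ in form. The first has the mature sequence on the 3′ arm of a long stem, the second is the hairpin of osa-miR12479, and the third is the member with the lowest folding energy for its length, a nearly perfect inverted repeat around a short loop. Their coordinates are chr3:25294948-25295101 on the plus strand, chr5:26275223-26275321 on the minus strand and chr4:18470791-18470861 on the plus strand.
chr3:25295065 hairpin: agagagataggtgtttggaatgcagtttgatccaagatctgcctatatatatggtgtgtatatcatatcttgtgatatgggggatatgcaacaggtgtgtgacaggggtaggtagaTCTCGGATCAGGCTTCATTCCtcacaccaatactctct
osa-miR12479 hairpin: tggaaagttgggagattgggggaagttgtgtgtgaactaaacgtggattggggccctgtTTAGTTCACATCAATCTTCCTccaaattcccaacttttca
chr4:18470801 hairpin: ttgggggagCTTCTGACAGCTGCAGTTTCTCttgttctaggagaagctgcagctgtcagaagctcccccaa

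The members were many and scarce. They made up 66.7% of the distinct predicted sequences in TR (132 members), 60.4% in CR (55), 68.0% in TS (185) and 63.3% in CS (200). Their reads summed to 515 in TR, 331 in CR, 720 in TS and 1225 in CS. On the deposited scale of reads per 1000000 reads used for prediction (RPM) this was 42.5 in TR (95% Poisson interval 38.9 to 46.3), 48.1 in CR (43.0 to 53.5), 73.7 in TS (68.4 to 79.3) and 93.4 in CS (88.2 to 98.8). As a share of all listed reads the order was another, with 1.29% in TR, 0.995% in CR, 2.33% in TS and 2.02% in CS. One read was worth 0.0825 RPM in TR, 0.145 in CR, 0.102 in TS and 0.0762 in CS. The highest member alone held 24.7% of the member reads in TR, 22.1% in CR, 23.2% in TS and 48.2% in CS. Without that member of each library the sums were 32.0 RPM in TR, 37.5 in CR, 56.6 in TS and 48.4 in CS, so that CS no longer stood above TS.

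Of the 499 members, 368 (73.7%) had no more than 2 reads in any library, which is the fewest any listed sequence had, and 14 (2.81%) reached 10 reads. The fewest reads of an entry went with its number of genome matches. Entries with 1 match and no miRNA* began at 2 reads, those just outside the rule with 2 matches began at 3 reads and those with more matches at 4 reads. Of the single-match entries with a miRNA*, 46 of 97 pairs of a sequence and a library had 2 reads, against 402 of 572 for the members. The class with 2 matches had 64 sequences, with a median hairpin G/C of 37.9% and a median folding energy of -38.8 kcal/mol per 100 nt, against 38.5% and -38.9 kcal/mol per 100 nt for the members.

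Most members were listed in a single library. This held for 444 of 499 (89.0%), while 41 were in 2 libraries, 10 in 3 and 4 in all. Presence in more than 1 list went with reads. Of members with no more than 2 reads, 2.72% were in more than 1 library, against 23.9% of those with a highest count of 3 or 4, 41.4% with 5 to 9 and 85.7% with 10 or more. TR and CR shared 6 members, which is 4.55% of the TR list and 10.9% of the CR list, against 20.5% and 37.7% when all listed sequences were counted. TS and CS shared 34, or 18.4% and 17.0% of their lists, against 30.9% and 27.2% of all listed sequences. Members listed in root alone numbered 148 (29.7%), in shoot alone 318 (63.7%), and in both tissues 33 (6.61%). Over all 783 distinct sequences these shares were 27.5%, 61.7% and 10.9%. The lists also differ in size and depth, with 6887961 reads used in CR and 13116913 in CS. Because a sequence of 2 reads easily falls under the floor of another list, an unlisted member was given no count of 0. For 94.7% of the 1424 unlisted pairs of a member and a library, the member would have had under 5 reads there at the highest RPM it had elsewhere. As members are listed from 2 reads on, some of these could have been listed at that level.

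The lists also held 1 sequence per locus. In none of the 4 did the mature sequences of 2 entries overlap on the same strand (0 pairs each), so a member can be missing from a list because a version of it with other ends stands there. Of the 499 members, 68 overlapped such a version in another list, and no library listed both versions. For 58 of them the other version was itself a member, giving 32 pairs, of which 13 kept the 5′ end and 19 had another one, and so another seed. With overlapping hairpins on the same strand counted once, the 499 members came from 468 loci, of which 75 rather than 55 were in more than 1 library and 7 rather than 4 were in all libraries. TR and CR then shared 13 loci in place of 6 sequences, and TS and CS 51 in place of 34. The locus at chr3:7103456 had no sequence common to all lists. Its 22 nt version had 22 reads in TR and 41 in CS, and its 21 nt version, which starts 1 base later, had 16 in CR and 38 in TS. Each of the libraries therefore listed the locus, with different seeds. At chr2:23768931 the 22 nt version had 27 reads in TS and 4 in CS, and the 21 nt version had 10 in TR.

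Some members were versions of a sequence that did have a miRNA* in another library. There were 7 of these. For 4 other members the hairpin overlapped, on the same strand, that of a sequence with a miRNA*, without overlap of the mature sequences. The member at chr4:30712347 had 20 reads in CR, while a version 1 base shorter at its 3′ end had 22 reads and a miRNA* in TR. The member at chr3:10542251 had 8 reads in TR, while a version 1 base longer had 26 reads and a miRNA* in CR. The member at chr4:19486578 had 5 reads in CR, 4 in TS and 11 in CS, while a 21 nt version had 2 reads and a miRNA* in TR. The lack of a miRNA* is thus a property of an exact sequence in the lists, and for the 7 versions it did not hold for the hairpin.

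The most abundant member, chr3:25295065, was among the 4 members in all libraries. It had 127 reads in TR, 38 in CR, 167 in TS and 590 in CS, or 10.5, 5.52, 17.1 and 45.0 RPM. It was highest in CS and lowest in CR. It differs from the miR166 sequence printed above only by T8C, counted from 1 at the 5′ end with the member's base first, so the 2 do not share the last base of the seed. miR166 in plants targets mRNA of class III HD-ZIP transcription factors, and whether the member does was not analysed here. The miR166 sequence matched 5 places in the genome and had 23052 reads in TR, 14787 in CR, 2973 in TS and 6698 in CS, so it was higher in root. The member was lower in root on the deposited scale. After NaCl this depended on the denominator, with a TR over TS ratio of 0.612 there and 1.02 with TMM factors. No other member of the same length came within 4 substitutions of a conserved sequence of the lists.

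osa-miR12479, named by the study, lies on chromosome 5 and was the third most abundant member. By Northern blot the paper found it in root alone, and lower after NaCl in Pokkali and in the salt-sensitive cultivar Badami. In the lists osa-miR12479 had 40 reads in TR and 57 in CR and, unlike on the blot, 15 in TS and 30 in CS. In RPM these were 3.30, 8.28, 1.54 and 2.29. CR was the highest library and TS the lowest. Its hairpin of 99 nt had an energy of -59.5 kcal/mol per 100 nt, lower than the median member.

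The other members in all libraries were low. The one at chr6:17008984 had 5 reads in TR, 3 in CR, 4 in TS and 10 in CS. The one at chr7:25044873 had 7 reads in TR, 4 in CR, 5 in TS and 15 in CS. Both had their highest count in CS, and neither had a ratio between libraries that met the rule for a call given below on the deposited scale. Under other denominators chr7:25044873 was called lower for TS over CS, as given below, and for CR over CS with raw reads, at 0.306 (0.0740 to 0.962).

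The member at chr11:19480162 was the one with the widest spread between libraries. It had 73 reads in CR, 3 in TS and 3 in CS, or 10.6, 0.307 and 0.229 RPM, and it was not in the TR list. At its CR level TR would have held 129 reads of it, and no version with other ends was listed there. It begins with a run of TC repeats, its mature sequence is on the 5′ arm, and only 1 of its bases is unpaired in the deposited fold.

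Of the members in 3 libraries, chr5:25113986 had 5 reads in CR, 6 in TS and 27 in CS, and chr7:23401783 had 6 in CR, 3 in TS and 4 in CS. The member at chr4:19715140 had 6 reads in TR, 4 in TS and 7 in CS. The remaining ones in 3 libraries, at chr2:12857951, chr3:32572993, chr4:18470801, chr7:12756076 and chr8:2987389, had 2 to 5 reads in each. At these counts a difference between libraries was not detectable.

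**Figure D1:**
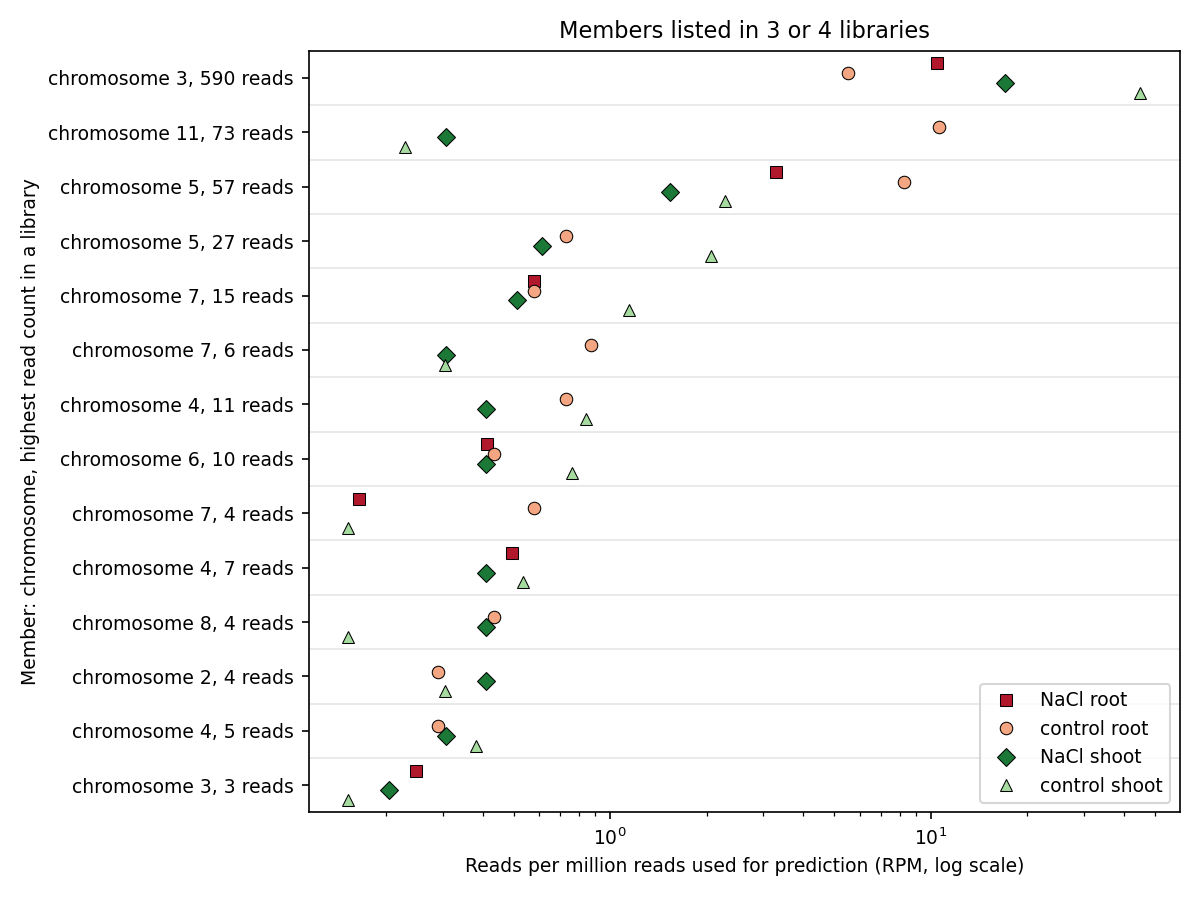
Level in RPM (log scale) of the 14 members listed in 3 or 4 libraries, each row named by chromosome and highest read count, with 1 point per library and no point where a member was not listed. The first row runs between 5.52 RPM in control root and 45.0 RPM in control shoot, and the lower rows lie near the resolution of the lists.

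For the comparisons, a member listed in both libraries was called higher or lower when its RPM differed by 2-fold or more, that is, with a ratio no lower than 2 or no higher than 0.5, and the exact conditional 95% interval of the ratio excluded 1. The deposited scale itself moves the ratios. Over all sequences in both lists the median ratio was 0.803 for TR over CR, 1.34 for TS over CS, 0.812 for CR over CS and 0.626 for TR over TS, and the members' medians were 0.970, 1.34, 1.27 and 1.21 in the same order. At so few reads the depths largely set such medians. The ratio of 1.34 is that of any sequence with equal reads in TS and CS, such as 2 in each. The members' 1.27 is the ratio of 2 reads in CR to 3 in CS, and 1.21 that of 3 reads in TR to 2 in TS. The last 2 comparisons share their libraries with the first 2.

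NaCl-treated against control root could be compared for 6 members. None was called higher, against 10.9% of the 46 sequences in both lists, and 1 was called lower, against 13% of them. The member called lower was osa-miR12479, with 40 reads in TR and 57 in CR and a ratio of 0.399 (0.259 to 0.608). The member chr3:25295065 had 127 reads in TR and 38 in CR and a ratio of 1.90 (1.31 to 2.80), an interval above 1 but short of 2-fold. Both depended on the denominator. With the raw reads of the libraries as denominator the ratio was 3.16 for chr3:25295065, which is then called higher, and 0.664 for osa-miR12479, which is then not called. The other 4 had ratios of 0.284 to 1.14 on 2 to 7 reads.

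NaCl-treated against control shoot could be compared for 34 members, of which 23 had at most 5 reads in both libraries. Of the 34, 2 were called higher, against 22.9% of the 96 sequences in both lists, and 2 lower, against 7.29% of them. The 22 nt member at chr2:23768931 had 27 reads in TS and 4 in CS, a ratio of 9.07 (3.16 to 35.7). The member at chr2:5469141 had 20 reads in TS and 3 in CS, a ratio of 8.96 (2.66 to 47.1). Both were called higher under each denominator tried. The member chr3:25295065 had 167 reads in TS and 590 in CS and a ratio of 0.380 (0.318 to 0.452). The member chr5:25113986 had 6 reads in TS and 27 in CS and a ratio of 0.299 (0.101 to 0.738). These were the 2 called lower, and when the sum of listed reads was the denominator neither was, with ratios of 0.557 and 0.437. osa-miR12479 had 15 reads in TS and 30 in CS, a ratio of 0.672 with an interval of 0.336 to 1.29. With TMM factors its ratio was 0.469 (0.235 to 0.90) and it was called lower, as it was at 0.50 with the median of ratios. For chr7:25044873, with 5 reads in TS and 15 in CS, the ratio was 0.448 (0.127 to 1.30). This member too was called lower with TMM factors, at 0.313 (0.0889 to 0.905), and with the median of ratios, at 0.333.

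Root against shoot without NaCl could be compared for 17 members, of which 2 were called higher in CR, against 14% of the 50 sequences in both lists, and 2 lower, against 22% of them. The member chr11:19480162 had 73 reads in CR and 3 in CS, a ratio of 46.3 (15.2 to 229.9). osa-miR12479 had 57 reads in CR and 30 in CS, a ratio of 3.62 (2.29 to 5.83). The member chr3:25295065 had 38 reads in CR and 590 in CS, a ratio of 0.123 (0.0859 to 0.170). The member chr5:25113986 had 5 reads in CR and 27 in CS, a ratio of 0.353 (0.106 to 0.929), with an upper bound close to 1, and was not called with the median of ratios (0.433) or TMM factors (0.416). For chr4:19486578, with 5 reads in CR and 11 in CS, the ratio was 0.866 (0.236 to 2.70).

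Root against shoot after NaCl could be compared for 11 members. There 1 was called higher in TR, against 17% of the 47 sequences in both lists, and none lower, against 31.9% of them. The member called higher was osa-miR12479, with 40 reads in TR and 15 in TS and a ratio of 2.15 (1.16 to 4.18). The member chr3:25295065 had 127 reads in TR and 167 in TS and a ratio of 0.612 (0.482 to 0.776), below 1 but not past 2-fold, and with TMM factors the ratio was 1.02. For chr7:25044873, with 7 reads in TR and 5 in TS, the ratio was 1.13 (0.308 to 4.50). osa-miR12479 was thus called higher in root both with and without NaCl, and this held under all 6 other denominators.

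**Figure D2:**
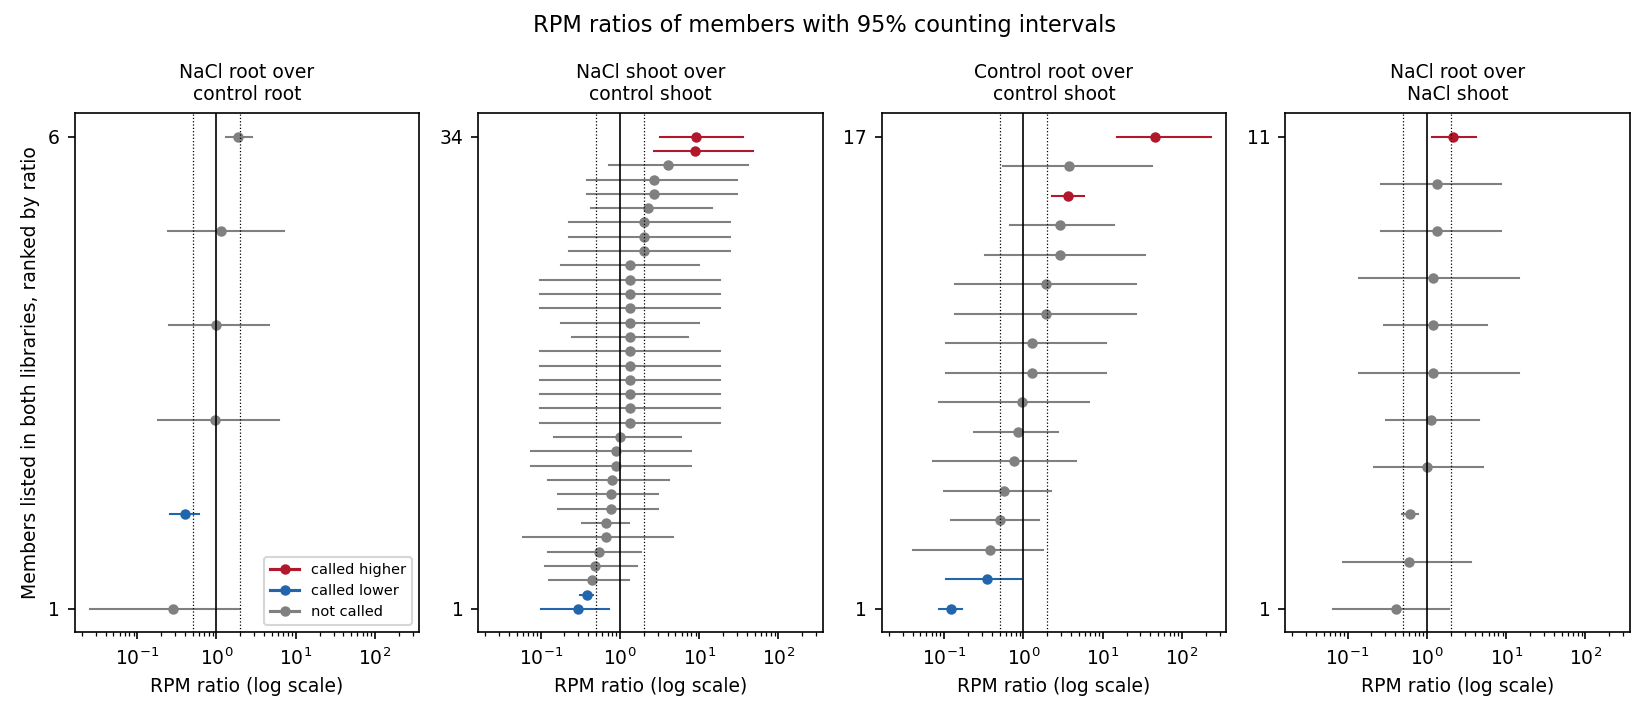
RPM ratio (log scale) of every member listed in both libraries of a comparison, ranked, with its 95% counting interval, a solid line at 1 and dotted lines at 0.5 and 2. Most intervals cross 1, and the called members are 1 of 6, 4 of 34, 4 of 17 and 1 of 11 from left to right.

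The members were mostly 22 nt long and mostly began with T. Of 499, 305 (61.1%, exact binomial 95% interval 56.7% to 65.4%) had 22 nt, 142 (28.5%, 24.5% to 32.6%) had 21 nt and 52 (10.4%, 7.88% to 13.4%) had 20 nt. The first base was T in 277 (55.5%, 51.0% to 59.9%), A in 84, C in 78 and G in 60. Over all libraries together the share with T rose with length. It was 64.9% among members of 22 nt (59.3% to 70.3%), 43.0% among those of 21 nt (34.7% to 51.5%) and 34.6% among those of 20 nt (22% to 49.1%). Within libraries this rise was not uniform, being absent from 21 to 22 nt in CR and from 20 to 21 nt in CS. The pooled shares also mix libraries with different shares of T, as given below. The last base was C in 192 and T in 164. Predicted sequences with a miRNA* had 22 nt in 56.6% (46.2% to 66.5%) and a first base T in 58.6% (48.2% to 68.4%), intervals that hold the shares of the members. Conserved sequences had 21 nt in 79.2% and a first base T in 81.1%.

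The first base differed between the libraries. T was the first base of 37.1% of the members in TR (28.9% to 46.0%), 43.6% in CR (30.3% to 57.7%), 54.6% in TS (47.1% to 61.9%) and 76.0% in CS (69.5% to 81.7%). The interval of CS lay above those of the others, but it is binomial over listed members, which are not replicates of a library. G was the first base of 29 of 132 members in TR but of 6 of 200 in CS. Among members of 22 nt the shares with T were 45.9% in TR, 44.8% in CR, 64.2% in TS and 81.6% in CS, so shoot was above root within this length too. Members listed in 1 library gave 32.1% in TR, 37.1% in CR, 49.3% in TS and 79.7% in CS. CS was also the highest library among predicted sequences with a miRNA*, at 46.7% in TR, 52.6% in CR, 55.6% in TS and 75% in CS. The same held for multi-copy sequences without a miRNA*, at 41.7% in TR, 41.2% in CR, 64.3% in TS and 80.9% in CS. The conserved sequences had T in 83.9% to 88.5% in every library. In both classes of predicted sequences outside the members shoot was above root and CS was highest, while the order of TR and CR differed between those classes. In the conserved class CS was not the highest. With 1 library per group the difference between the libraries cannot be told apart from a difference between the library preparations.

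**Figure D3:**
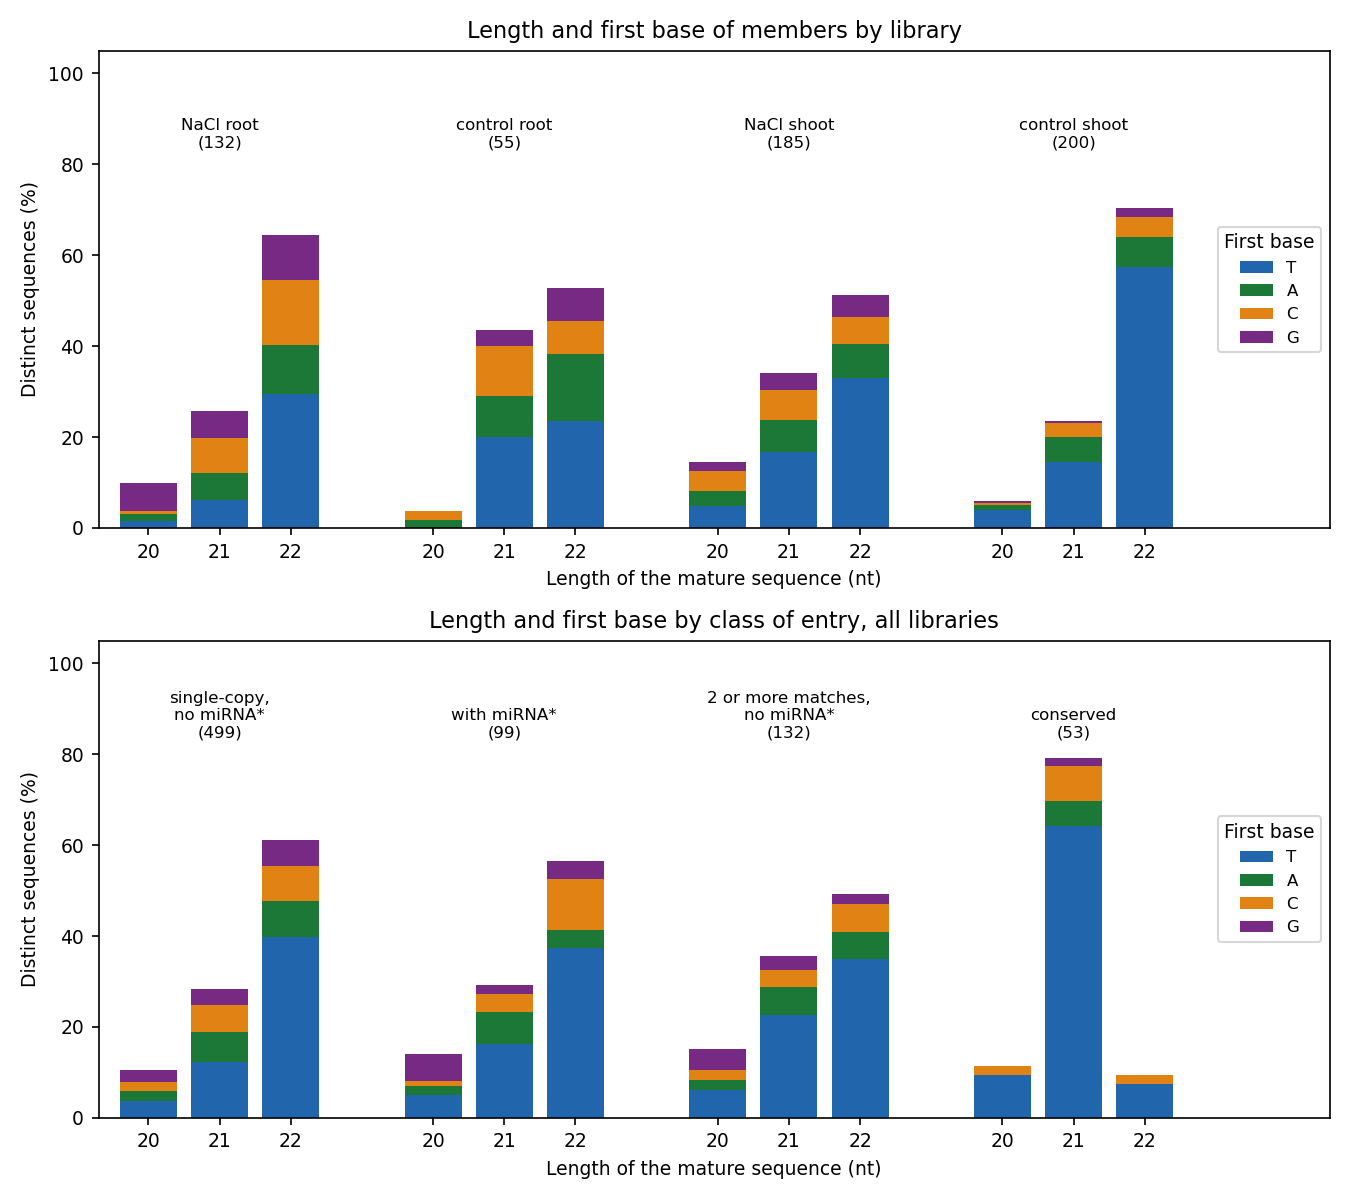
Share of distinct sequences (%) by length and first base, for the members of each library above and for the classes of entries over all libraries below, with the number of sequences in parentheses. The part with a first base T is 37.1% in NaCl root and 76.0% in control shoot, and 21 nt is the main length only in the conserved class.

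Hairpins of the members ranged from 60 to 218 nt with a median of 112 nt. Their G/C content had a median of 38.5% (quartiles 31.0% and 45.5%, range 17.8% to 79.8%). It was lower for members with a first base T, with a median of 33.6%, than for those with A (40.9%), C (46.1%) or G (41.2%). By library the median was 39.8% in TR, 41.5% in CR, 39.6% in TS and 35.3% in CS. Hairpins of sequences with a miRNA* had a median of 38.9% and those of conserved sequences 49.6%.

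The folding energy per 100 nt had a median of -38.9 kcal/mol among the members (quartiles -50.2 and -31.2), against -47.0 kcal/mol for sequences with a miRNA*, -38.2 kcal/mol for multi-copy sequences without one and -50.8 kcal/mol for conserved sequences. No member lay above -25.1 kcal/mol per 100 nt. The other predicted classes ended near the same value, at -25.1 for multi-copy sequences without a miRNA* and -25.7 for sequences with one. Taken from the list with most reads of each member, the lowest energies were -92.5 kcal/mol per 100 nt at chr4:18470801, -91.6 at chr8:3956058 and -90.4 at chr11:13523546. Of these, chr11:13523546 is a version of a sequence that had a miRNA* in CS. The highest energies were -25.1 at chr1:18229079, -25.1 at chr3:4204523 and -25.2 at chr3:30119685. The member at chr8:3956058, with 7 reads in CS, had a hairpin of 202 nt with 73.8% G/C and no unpaired base in its mature sequence. All those at the weak end had 2 reads in a single library. The p-value that the prediction gave the fold was 0.009901, its lowest step, for 407 members and reached 0.049505. In the deposited folds the mature sequence was on the 5′ arm in 271 members and on the 3′ arm in 228. In 32 of the 499, chr4:30712347 among them, the deposited hairpin does not hold the whole mature sequence. The counts by arm include these. At most 4 of its bases were unpaired in 68.7% of all members, against 80.8% of sequences with a miRNA* and 96.2% of conserved sequences. The folds are part of the prediction, so these values are a description and no test was made of them.

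The deposited energies were mostly, but not always, those of the deposited hairpins. Refolding with RNAfold gave energies a median of 1.00 kcal/mol higher, and 12 members differed by over 5 kcal/mol. At chr3:31472427 the deposited value was -53.8 and the recomputed one -25.6 kcal/mol. At chr4:6719396 they were -55.8 and -83.7 kcal/mol. The member at chr1:13299626 had -135.9 kcal/mol in the TR list and -47.5 kcal/mol in the CS list for a hairpin that refolded to -44.8 kcal/mol. The median over the members with recomputed energies was -38.2 kcal/mol per 100 nt.

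**Figure D4:**
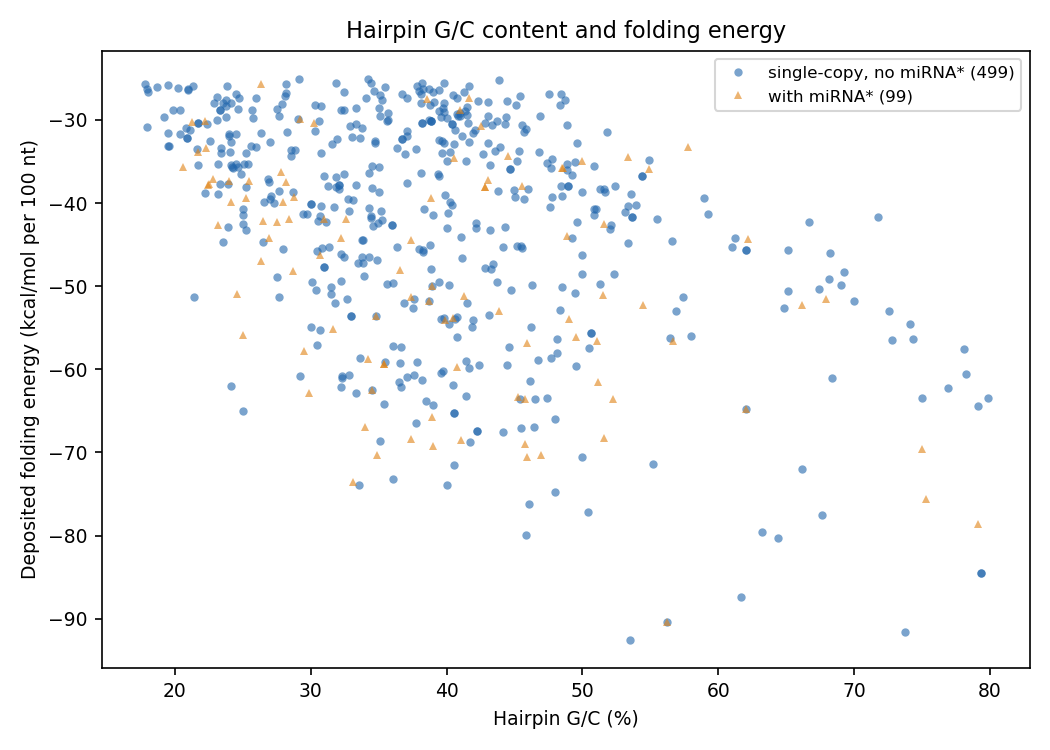
Hairpin G/C (%) against deposited folding energy (kcal/mol per 100 nt) for the 499 members (circles) and the 99 predicted sequences with a miRNA* (triangles), 1 point per sequence. Both classes cover the same range of G/C and end near the same weak edge, at -25.1 for the members and -25.7 for the others. The members crowd toward it, and their median is -38.9 against -47.0 for the sequences with a miRNA*.

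Although each member matched the genome once, some shared a seed or another short run of bases. Of 445 distinct seeds, 40 were held by more than 1 member, by 94 members in all, and 32 were held by different loci. The following cores were picked after the sequences had been seen and are a description. The 9 bases ACGTTTGAC were in 15 members on 7 chromosomes (3.01%), from position 7 to position 13. The same bases were in 5.05% of the sequences with a miRNA* and 6.06% of the multi-copy ones. CCGTAGAAT was in 8 members (1.60%), always from position 8 of the mature sequence and at some loci in versions of 2 lengths, in 1 of 132 multi-copy sequences and in none of 99 with a miRNA*. CAACTTTGA was in 8 members and CAGATTCGT in 7. Examples are printed with the core in capitals. The first 3 come from chromosomes 5, 3 and 8 and the next 3 from chromosomes 1, 12 and 6.
chr5:25113986: ttaaaaaCCGTAGAATtgctc
chr3:34857012: tcaaggaCCGTAGAATtgttct
chr8:27424156: ttaagtaCCGTAGAATtgctct
chr1:13457063: tttttgtttgtaACGTTTGACt
chr12:20104937: ttttcgacaaACGTTTGACt
chr6:1066664: ttttttactaACGTTTGACt

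In the first set chr5:25113986 had up to 27 reads and the others up to 5. In the second set the highest count was 6 reads, for chr1:13457063.

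Only 2 members shared a seed with a conserved sequence. The member at chr3:28058769 had the seed of the conserved sequence labelled mir394mir384 and differed from it at 9 later positions. The member at chr7:12432997 had the seed of mir319, whose family targets TCP transcription factors, and differed at 10 later positions. The seeds are shown in capitals.
chr3:28058769: tTGGCATTgttgaaattttggc
chr7:12432997: tTGGACTGgatgagacataacc

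The members were spread over the 12 chromosomes. Chromosome 3 had the most, 76, or 2.09 per Mb, and chromosome 9 the fewest, 16, or 0.695 per Mb, against 1.34 per Mb over all. Chromosomes 9 to 12 all lay below 1 per Mb. Of the members, 263 were on the plus strand and 236 on the minus strand. Neighbouring loci were under 1000 nt apart in 7 cases, among them chr2:23768617 and chr2:23768931, which are 210 nt apart. Whether the loci lie in annotated genes, exons, introns or UTRs was not analysed here.

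**Figure D5:**
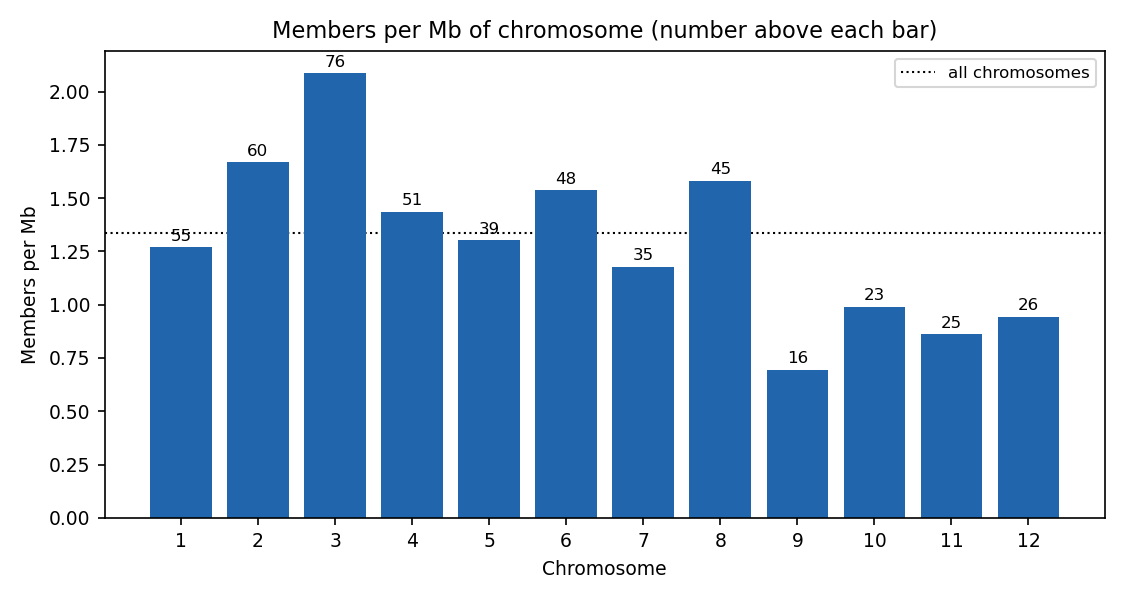
Members per Mb of each chromosome, with the number of members above each bar and the value over all chromosomes as a dotted line at 1.34. Chromosome 3 is highest at 2.09 per Mb and chromosome 9 lowest at 0.695 per Mb.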

How the data were processed

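The 4 deposited lists hold 1 entry per predicted or known hairpin locus, 289 in TR, 172 in CR, 386 in TS and 445 in CS. Per the paper and the labels, the authors processed single-end reads with cutadapt, NGS QC Toolkit and UEA Small-RNA Workbench, removed other non-coding RNA, and mapped them to the rice genome to predict hairpins. Which of these programs called the hairpins, and their versions, are not given in the sources used for this report. The deposited abundance is a read count. The deposited RPM is that count per 1000000 reads used for prediction, which were 12126876 in TR, 6887961 in CR, 9765004 in TS and 13116913 in CS as recovered from both columns, and a log2 of the RPM was deposited but not needed. The authors also deposited G/C percent, folding energy in kcal/mol and the p-value of each fold. A further 3, 3, 4 and 5 lines without content in TR, CR, TS and CS were not analysed here.

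Each distinct sequence was counted once, with hairpin values from the library with most reads of it. Ratios had exact conditional (Clopper-Pearson) intervals at 95%, shares exact binomial and sums exact Poisson intervals. Reads are not independent molecules, so the intervals of ratios and sums cover counting error only. Members are not replicates of a library, so the intervals of shares do not measure a spread between libraries. No p-value was computed. The ratio and call functions were tested on simulated counts. Alternatives were other denominators, including TMM factors of edgeR 4.0.16 in R 4.3.3, a minimum of 10 reads, a 1.5-fold rule, a p-value of at most 0.01 and merged loci. Hairpins were refolded with RNAfold 2.7.2. Other steps used Python 3.11.15, pandas 2.3.3, numpy 2.4.6 and scipy 1.17.1. Coordinates are those of the lists (IRGSP-1.0), and the gene table at hand is of another assembly and was not used.

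The members and lists were chosen with earlier results of these data known. Members named with values are osa-miR12479, the 10 with the highest RPM, those in 3 or 4 libraries, the 5 highest and 5 lowest ratios per comparison among members with at least 5 reads in both, the 3 lowest and 3 highest energies, the 5 most read that overlap another listed sequence, and those that share a seed with a conserved sequence. Others were named after their values were seen.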

Additional observations from a re-analysis of the deposited data

Results flagged for a closer look

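The member chr3:25295065 went in opposite directions in the tissues after NaCl. Its ratio was 1.90 for TR over CR (1.31 to 2.80) and 0.38 for TS over CS (0.318 to 0.452). Of the 4 members in all libraries, any whose 2 counting intervals lay on opposite sides of 1 was flagged. That these intervals do so is therefore the rule of selection and adds no support. With 1 library per group the difference between the tissues was not tested. The direction in both tissues was the same under all 6 other denominators, where the root ratio was 2.36 to 3.16 and the shoot ratio 0.266 to 0.557.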

How the results depend on the processing

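No paired analysis was possible because each group has 1 library. Over 116 recomputed values, 75 stayed close to the reported ones, 41 moved and 0 called values changed direction. A count was taken as close when it was equal or within 1.5-fold, and a share or median when it lay in the 95% interval of the reported one. By this rule 75 loci in place of 55 members in more than 1 library counted as close. Some values had no room to move, such as a count of 0 under a minimum of 10 reads. Of the 6 other denominators, all gave 1 member called higher for TR over CR in place of 0 (as did the 1.5-fold rule), and all but the median of ratios gave 0 called lower in place of 1. For TS over CS, 0 were called lower with the sum of listed reads and 4 with the median of ratios or TMM, in place of 2. For CR over CS, 1 was called lower with the median of ratios or TMM, in place of 2. The 1.5-fold rule gave 1 called lower for TR over TS in place of 0. With at least 10 reads in both libraries, 0 were called higher and 1 lower for TS over CS, and 1 higher and 1 lower for CR over CS. A hairpin p-value of at most 0.01 left 1 called higher for TS over CS. Without the most abundant member, 1 was called lower for TS over CS and 1 for CR over CS. That setting, and one without versions of sequences that have a miRNA*, were chosen after seeing the data.

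Lists of members with at least 10 reads had 4 in TR, 5 in CR, 5 in TS and 8 in CS, and 12 members of that level were in more than 1 library. For members with at least 10 reads, the share of 21 nt was 50%, the share with a first base T 50%, the median G/C 44.7% and the median energy -42.3 kcal/mol per 100 nt. For members in more than 1 library these were 32.7%, 63.6%, 40.1% and -41.5 kcal/mol per 100 nt. With a hairpin p-value of at most 0.01 the share with T was 61.9%, the median G/C 36.0% and the median energy -41.0 kcal/mol per 100 nt. At a typical 2 reads per member, a change between libraries was not detectable.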
